A study of Mus musculus with 6 samples.

Results

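The genes described here are 9 markers of leukocytes measured in RNA-Seq of isolated lung endothelial cells (iLECs): *Ptprc*, *Adgre1*, *Cd68*, *Csf1r*, *Lyz2*, *Itgam*, *Cd3e*, *Cd79a* and *Cd74*. They were chosen by name as genes of blood-derived cells that can be carried over into an endothelial fraction, and they are 9 of the 24972 gene symbols in the table. All 9 passed the minimum set for testing a gene, a value of 10 or more in 3 or more libraries, and did so in both genotypes. The lowest single value was 21.1, for *Cd3e* in 1 control library.

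Lungs were taken at postnatal day 7 (P7), and 1 library was made from each of 3 control samples and 3 samples with an induced endothelial knockout of *Atp6ap2* (iECKO). *Atp6ap2* encodes the (pro)renin receptor, an accessory protein of the vacuolar proton pump. Pups of both genotypes received 100 μg of tamoxifen on P1, P2 and P3, and cells were pulled from digested lungs with magnetic beads coated with an antibody against CD31. Poly(A) libraries were sequenced, and the deposited values are estimated counts that had already been scaled between libraries, called normalized counts here, with totals between 26243900 and 28725800 per library. Controls are labelled *Atp6ap2* fl/Y, a floxed allele on the single X chromosome, and had no Cre. The iECKO samples carried the same floxed allele and *Cdh5-CreERT2*, a tamoxifen-activated Cre under the promoter of the endothelial cadherin gene *Cdh5*, so that recombination is directed to endothelial cells and leukocytes were not its target. The labels give the strain as C57BL/6, while the study's methods describe a mixed CD1 and C57BL/6 background. Nothing states whether each sample came from 1 animal or from pooled lungs, so the tests below measure the spread between these 6 samples.

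CD45, the product of *Ptprc*, is a phosphatase on the surface of nearly all leukocytes and is absent from endothelium and from mature red cells. Macrophages carry F4/80 (*Adgre1*), the lysosomal protein CD68 and the receptor for colony-stimulating factor 1 (*Csf1r*), on which most tissue macrophages depend for survival. T cells are recognised by the CD3 complex and B cells by the CD79 signalling pair of the B cell receptor. CD31 is itself present on platelets and on many monocytes, macrophages and lymphocytes, as well as on endothelium. In a bulk library, fewer cells of a type and less RNA per cell cannot be told apart, and this holds for every marker below.

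The myeloid and B cell factor PU.1 (*Spi1*) binds a purine-rich core, GAGGAA, which lies near the start of many leukocyte genes. RefSeq windows of 300 bases around the start were at hand for 6 of the 9 genes (7 windows, build GRCm38.p6). On either strand, the 6 letters were found in 5 of the 7 windows, those of *Itgam*, *Cd68*, *Cd79a*, *Cd3e* and 1 of 2 for *Ptprc*, and in 28.3% of 32851 windows over all genes. The longer string AGAGGAAGT, which contains the first, was in 0 of the 7 windows and in 1.0% of all windows. From these windows, the 100 bases before the RefSeq start or, where it lies further upstream, the GENCODE start of the gene are shown for a myeloid gene (*Itgam*), a B cell gene (*Cd79a*) and a T cell gene (*Cd3e*), as genes of different lineages, and for *Lyz2*, a macrophage gene without a match. Capitals mark the GAGGAA core or its complement TTCCTC, and a match is a description of the letters only.

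Itgam, chr7:128062540-128062639, plus strand: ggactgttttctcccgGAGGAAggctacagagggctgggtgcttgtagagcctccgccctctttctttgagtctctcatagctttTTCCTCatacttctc
Cd79a, chr7:24897281-24897380, plus strand: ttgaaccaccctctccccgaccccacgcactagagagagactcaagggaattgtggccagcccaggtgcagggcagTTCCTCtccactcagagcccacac
Cd3e, chr9:45009628-45009727, minus strand: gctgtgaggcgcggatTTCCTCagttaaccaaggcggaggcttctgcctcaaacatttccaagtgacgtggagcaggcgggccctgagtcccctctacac
Lyz2, chr10:117282322-117282421, minus strand: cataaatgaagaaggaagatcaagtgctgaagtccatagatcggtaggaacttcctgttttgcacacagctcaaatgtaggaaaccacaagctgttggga

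The labels were checked first. *Atp6ap2* (chrX:12587801-12617049) was measured at 7490, 5815 and 5681 normalized counts in control replicates 1 to 3 and at 4220, 2336 and 1982 in iECKO replicates 1 to 3. The genotypes did not overlap, and the log2 fold change of iECKO over control was -1.22 (SE 0.26, adjusted *P* = 0.0306 by limma with Benjamini-Hochberg adjustment over 14456 genes). The exact two-sided permutation test gave *P* = 0.1, the smallest value that 3 against 3 samples allow. *Xist*, the RNA that coats the inactive X chromosome of female cells, went against the fl/Y label in 4 of the 6 libraries. Its normalized counts were 37704 and 44402 in control replicates 1 and 2 and 39442 and 47487 in iECKO replicates 1 and 3, but 31.7 in control replicate 3 and 19.3 in iECKO replicate 2. The study describes the use of neonates of both sexes, with fl/fl females counted in the same groups, although the labels give fl/Y for all samples. Results below are therefore also given for the 4 libraries with high *Xist*.

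Defining endothelial markers were abundant in all 6 libraries, but not alone. *Cdh5* had a mean of 22434 normalized counts per kilobase of exon and *Pecam1*, which encodes CD31, of 8812 (n = 6), above 99.9% and 99.6% of the tested genes. Genes of other cells reached similar levels, with means of 24648 for the haemoglobin gene *Hba-a1*, 19970 for the epithelial gene *Sftpc* and 13337 for the fibroblast gene *Mfap4*. Among 16 endothelial markers, 0 rose and 1 fell in iECKO iLECs, the angiopoietin receptor gene *Tek* (log2 fold change -0.53, adjusted *P* = 0.0292), where 8.25% of all 14456 genes tested were called in either direction. Fibroblast and mural (vessel wall) markers fell, 10 of 11 and 9 of 12, with median log2 fold changes of -1.56 and -1.53 against 0.00 over all genes. Their part in the values of leukocyte genes was not tested.

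Leukocyte transcripts ranged from some of the most abundant in the fraction to some of the least. Per kilobase of exon, *Lyz2* had a mean of 2972 and *Cd74* of 2934 normalized counts, which averaged 34.0% and 33.5% of *Pecam1* in the same library and above 97.7% of the tested genes for both. *Lyz2* encodes lysozyme of macrophages and granulocytes, and *Cd74* the invariant chain that guides class II molecules of antigen presentation. Over the longest transcript in place of all exons, these shares were 18.8% and 22.1%, since the exons of *Pecam1* span 6228 bases and its longest transcript 3441 bases. Both are also made by type II cells of the alveolar epithelium, whose marker *Sftpc* stood at 19970 per kilobase. The other 7 markers lay far lower. The means were 519 for *Cd79a*, 267 for *Cd68*, 230 for *Csf1r* and 137 for *Adgre1*, against a median of 126 over all tested genes with a length. *Ptprc*, *Itgam* and *Cd3e* were below that median, at 95.05, 66.4 and 12.99 per kilobase. *Ptprc* depends on the length used, since the union of its exons is 18313 bases and its longest transcript 5740 bases, over which the level was 303. Across the 9 markers, the median level was 2.62% of *Pecam1* (*Csf1r*), or 1.77% over the longest transcript.

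**Figure D1:**
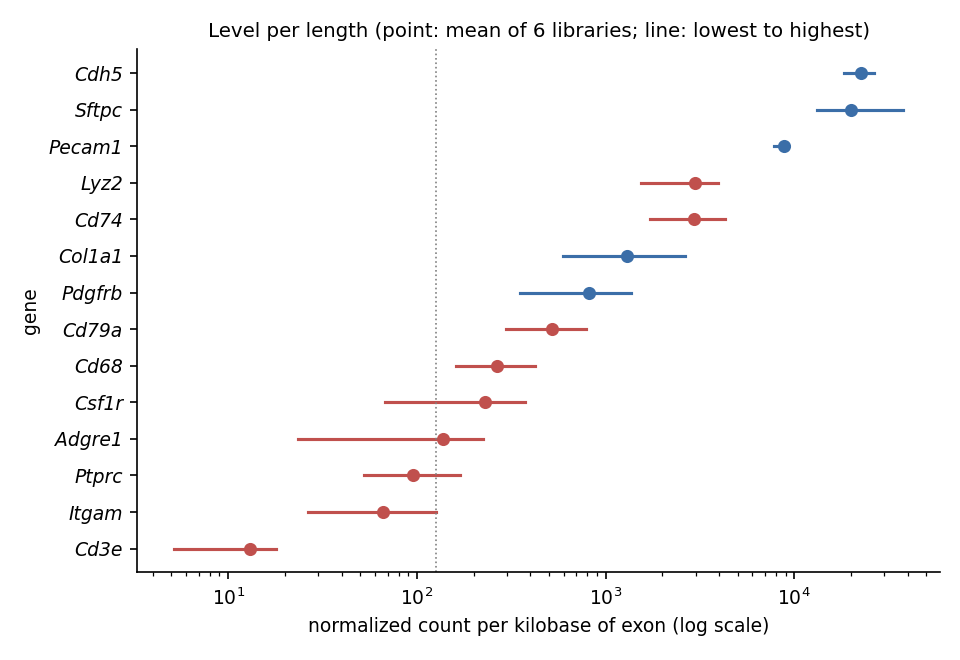
Mean normalized count per kilobase of exon on a log axis for the 9 leukocyte markers (red) and for endothelial, fibroblast, mural and epithelial genes (blue); points are means of 6 libraries, lines run from the lowest to the highest library, and the dotted line is the median of the tested genes (126). Lyz2 and Cd74 lie between the endothelial genes and Col1a1, and Cd3e is lowest at 12.99.

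The spread of these markers among libraries was large. The difference between the highest and the lowest library had a median of 0.61 on the log2 scale over all tested genes, with a 95th percentile of 2.33. Every marker exceeded that median, from 1.33 for *Cd74* to 3.24 for *Adgre1*, which was wider than 79.8% and 98.4% of the tested genes. iECKO replicate 2 was the lowest library for 7 of the 9 markers, and control replicate 2 for the other 2, *Cd3e* and *Cd79a*. iECKO replicate 3 was the highest library for 8 of the 9, all but *Lyz2*. Over all tested genes, 14.1% were lowest in iECKO replicate 2 and 18.2% highest in iECKO replicate 3. Apart from *Cd3e*, *Cd79a* and *Lyz2*, both extremes of each marker were thus libraries of the same genotype. iECKO replicate 2 did not detect fewer genes than the others, with 16793 genes above 0 against 16502 to 16732. It was 1 of the 2 libraries with low *Xist*, and the other, control replicate 3, was lowest for 0 of the 9 markers.

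*Ptprc* (chr1:138062861-138175708) had normalized counts of 1930, 996 and 1457 in the control libraries and of 2000, 956 and 3106 in the iECKO libraries. Replicate 2 was low in both genotypes, and iECKO replicate 3 stood above all others by a wide margin. The genotypes overlapped, with a log2 fold change of 0.36 (SE 0.41, adjusted *P* = 0.65). CD45 marks leukocytes as a class, so its level does not tell which lineage was carried over.

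*Adgre1*, *Csf1r* and *Itgam*, genes of macrophages and other myeloid cells, varied most. *Adgre1* (chr17:57358691-57483527), the source of the F4/80 antigen, had 592, 339 and 389 normalized counts in the controls and 545, 76.0 and 725 in iECKO iLECs. The value in iECKO replicate 2 lay far under the rest, 7.16-fold below the median of the other 5 libraries, and the genotypes overlapped. The log2 fold change was -0.46 (95% interval -2.18 to 1.27, adjusted *P* = 0.768), although the mean of iECKO (448.7) was slightly above that of control (440.1). *Csf1r* (chr18:61100598-61132149) had 1518, 948 and 1316 in the controls and 1641, 391 and 2148 in iECKO iLECs, with a log2 fold change of -0.15 (95% interval -1.45 to 1.15, adjusted *P* = 0.902). Its order of libraries followed that of *Adgre1* closely, with iECKO replicate 2 lowest, 3.89-fold below the median of the others, and both genotypes overlapping. As with *Adgre1*, the arithmetic means (1261 in control, 1393 in iECKO) ran opposite to the log2 value.

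*Itgam* (chr7:128062640-128118491) encodes the CD11b integrin chain of monocytes, macrophages, neutrophils and natural killer cells. Its normalized counts were 385, 214 and 209 in the controls and 422, 134 and 638 in iECKO iLECs, a log2 fold change of 0.36 (95% interval -0.87 to 1.58, adjusted *P* = 0.742). The lowest and the highest value were again iECKO replicates 2 and 3, which differed 4.77-fold. *Cd68* (chr11:69664213-69666153) had 303, 295 and 294 in the controls and 390, 202 and 529 in iECKO iLECs (log2 fold change 0.22, 95% interval -0.50 to 0.94, adjusted *P* = 0.722). The controls were nearly equal (SD 4.87, n = 3), whereas the iECKO values fell on either side of them (SD 164, n = 3). iECKO replicate 2 was 1.497-fold below the median of the other libraries, less than for the other myeloid markers.

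*Lyz2* (chr10:117277331-117282321) departed from the other myeloid genes. Its normalized counts were 4303, 2324 and 5198 in the controls and 5097, 2028 and 4518 in iECKO iLECs, with a log2 fold change of -0.05 (95% interval -0.95 to 0.85, adjusted *P* = 0.954). Both replicates numbered 2 were low, by about as much, and the highest library was control replicate 3. That library also had the most epithelial signal, with *Sftpc*, the gene of surfactant protein C, at 39068 against 13596 to 21587 in the others, and a sum of 71474 over 12 epithelial markers against 26367 to 39710. Of these 12, 10 were highest in control replicate 3, and *Sftpc* was the most abundant per kilobase. The part of epithelial cells in *Lyz2* was not tested. *Lyz2* is near-identical to *Lyz1*, and how reads were divided between them is not given, so its value is uncertain. *Lyz1* had 1772, 1326 and 1855 in the controls and 1913, 1624 and 1137 in iECKO iLECs, with iECKO replicate 3 lowest.

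The lymphocyte markers had another low library. *Cd79a* (chr7:24897381-24902197), a signalling chain of the B cell receptor, had 877, 433 and 624 normalized counts in the controls and 891, 570 and 1145 in iECKO iLECs (log2 fold change 0.43, 95% interval -0.28 to 1.14, adjusted *P* = 0.446). Control replicate 2 was lowest and iECKO replicate 2 next, 1.54-fold below the median of the other libraries. *Cd3e* (chr9:44998740-45009627), a chain of the T cell receptor complex, was the least abundant marker, with 46.0, 21.1 and 67.8 in the controls and 63.7, 46.6 and 72.9 in iECKO iLECs (log2 fold change 0.56, 95% interval -0.46 to 1.57, adjusted *P* = 0.496). The genotypes overlapped, and without control replicate 2 the log2 fold change was 0.10.

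*Cd74* (chr18:60803848-60812652) is expressed by B cells, dendritic cells and activated macrophages, which present antigen on class II molecules. Its normalized counts were 5360, 3080 and 6065 in the controls and 4917, 2888 and 7249 in iECKO iLECs, with a log2 fold change of 0.01 (95% interval -0.80 to 0.82, adjusted *P* = 0.988). Both replicates numbered 2 were low, and the values of the genotypes were interleaved.

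**Figure D2:**
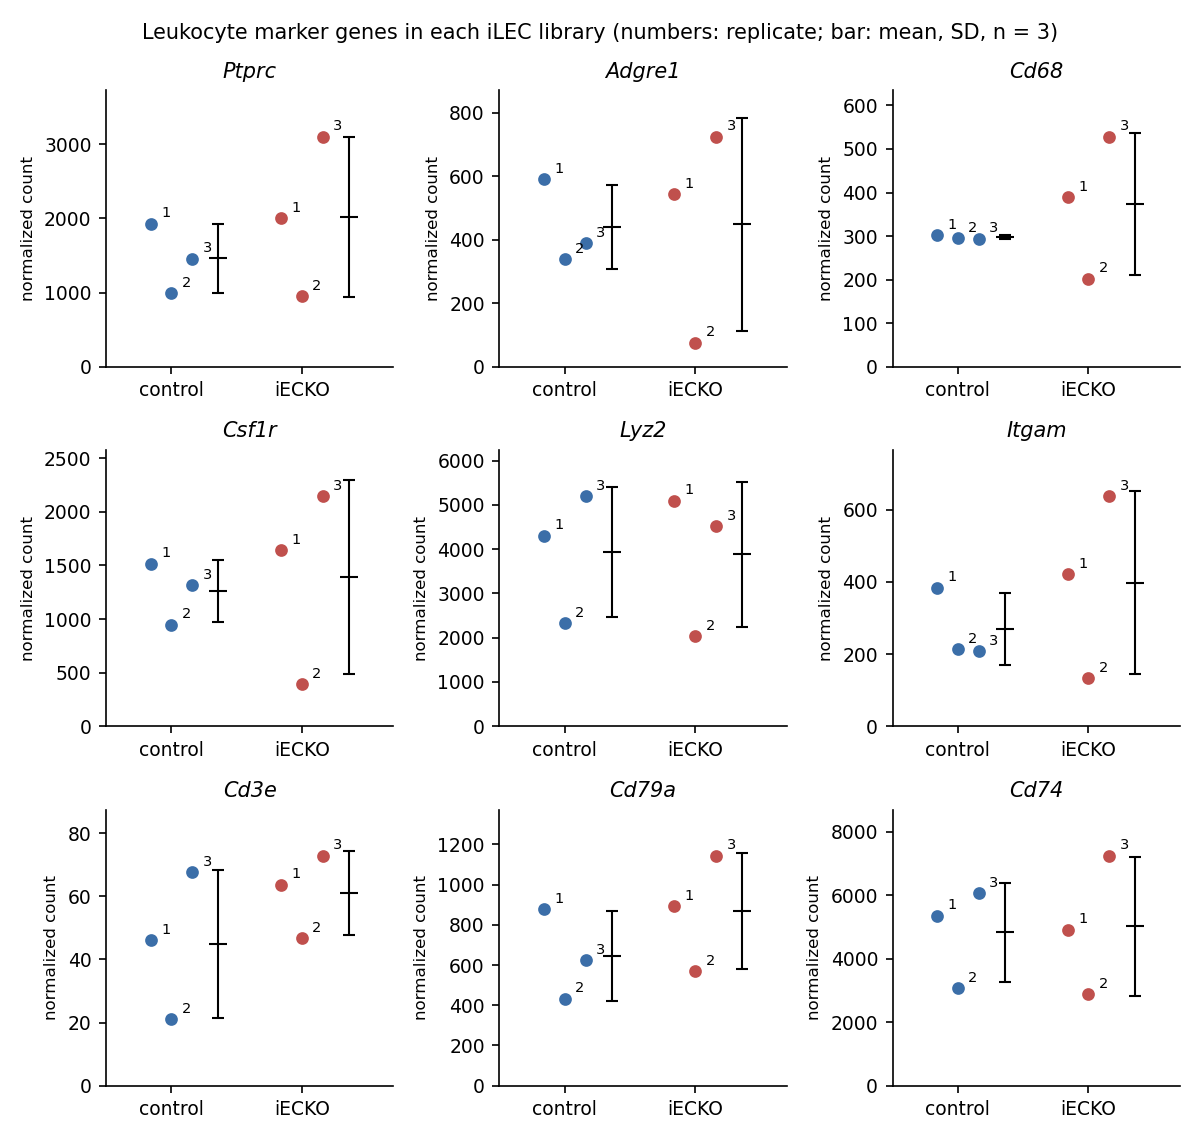
Normalized count (linear axis from 0) of each of the 9 markers in the 3 control (blue) and 3 iECKO (red) libraries, numbered by replicate, with the mean and SD of each genotype (n = 3). The genotypes overlap in all 9 panels, and iECKO replicates 2 and 3 are the lowest and the highest library in 6 of them.

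The comparison of genotypes called 0 of the 9 markers, against 8.25% of the 14456 genes tested with limma at an adjusted *P* value below 0.05. At an unadjusted *P* value below 0.05 it was also 0 of 9, where 23.9% of all genes passed. All 9 overlapped between genotypes, while 29.8% of the tested genes did not, and the exact permutation tests of single markers gave *P* values between 0.4 and 1. Of the 9, 6 had a fold change above 0 and 3 below, with a median of 0.22. The intervals were wide, reaching down to -2.18 for *Adgre1* and up to 1.58 for *Itgam* on the log2 scale, so that overlap here does not show that the genotypes were alike.

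The sign of the difference depended on which libraries were included. Without iECKO replicate 2, all 9 markers were higher in iECKO iLECs, by 0.36 (*Lyz2* and *Cd74*) to 1.01 (*Itgam*) on the log2 scale. Of these, 5 had an unadjusted *P* value below 0.05, where 18.4% of all genes did, and 0 passed after adjustment (lowest adjusted *P* = 0.135, *Cd68*). *Ptprc* then had a log2 fold change of 0.82 (adjusted *P* = 0.185), and *Adgre1* changed sign to 0.55. Without iECKO replicate 3, 2 of the 9 were higher, the lymphocyte markers *Cd3e* (0.42) and *Cd79a* (0.20), and *Adgre1* was at -1.06. In the 4 libraries with high *Xist*, which leave out iECKO replicate 2 and control replicate 3, all 9 were higher in iECKO iLECs and 0 passed (lowest adjusted *P* = 0.273). Of the 9, 4 had an unadjusted *P* value below 0.05 there, where 15.5% of all genes did. iECKO replicate 2, left out in both cases, was the lowest library for 7 of the 9 markers. Leaving it out raises their iECKO values by construction, so the 5 and 4 markers below 0.05 cannot be read against the shares over all genes. Leaving out a control library turned *Lyz2* to 0.051 (without replicate 1) or 0.19 (without replicate 3) and *Cd74* to -0.28 (without replicate 2).

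**Figure D3:**
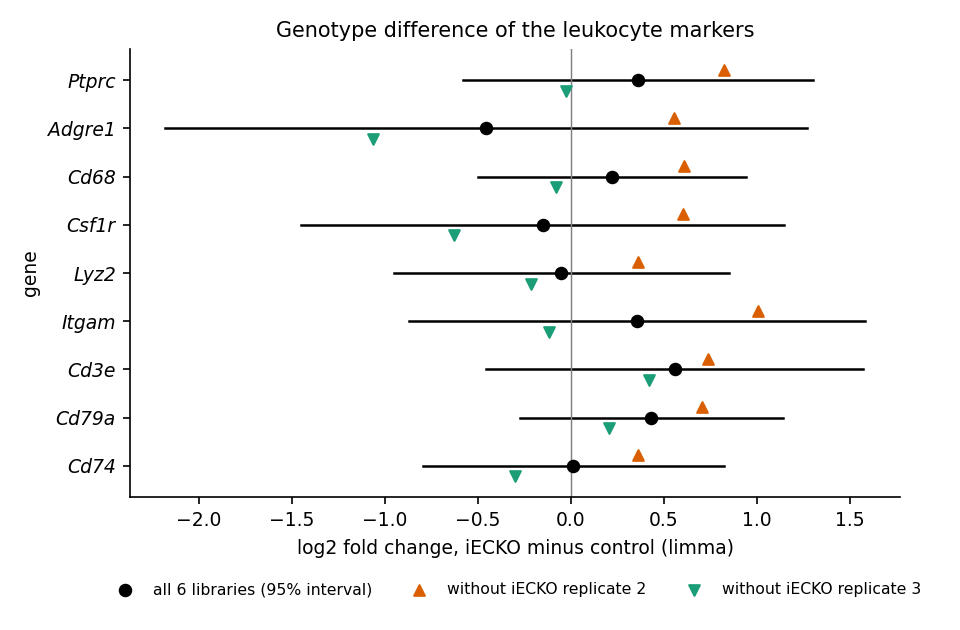
Log2 fold change of iECKO over control for each of the 9 markers: circles with 95% intervals use all 6 libraries, upward triangles leave out iECKO replicate 2 and downward triangles leave out iECKO replicate 3. Every interval crosses 0, and all upward triangles lie above 0.

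Leukocyte lineages were not lowered alike in iECKO replicate 2. Control replicate 2 and iECKO replicate 2 had nearly the same *Ptprc* level, 996 and 956 normalized counts, a ratio of 1.04. At this like level of CD45, *Adgre1* was 4.46-fold, *Csf1r* 2.43-fold, *Itgam* 1.60-fold and *Cd68* 1.46-fold higher in control replicate 2. *Lyz2* and *Cd74* were nearly equal in the 2 libraries (ratios of 1.15 and 1.07), while *Cd79a* was 0.759 times and *Cd3e* 0.452 times its level in iECKO replicate 2. *Adgre1* was 0.0796 of *Ptprc* in iECKO replicate 2 and between 0.234 and 0.341 of it in the other 5 libraries. *Cd79a*, by contrast, was 0.596 of *Ptprc* in iECKO replicate 2 and 0.369 to 0.454 elsewhere. These ratios are between genes in 1 library and rest on no replicate.

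Longer lists of markers also differed in how low they were in iECKO replicate 2. Of 24 macrophage genes, which include 5 of the 9 markers, 23 were lowest in iECKO replicate 2, the exception being the scavenger receptor gene *Cd163* (lowest in control replicate 3), and 21 were highest in iECKO replicate 3. The median gene of this list was 3.76-fold lower in iECKO replicate 2 than in the middle of the other 5 libraries. Complement C1q genes, a hallmark of resident macrophages, were among the lowest there, 7.15-fold (*C1qa*), 5.47-fold (*C1qb*) and 8.16-fold (*C1qc*), as was the fractalkine receptor gene *Cx3cr1* (7.76-fold). *C1qa* had 618, 316 and 368 normalized counts in the controls and 509, 71.2 and 675 in iECKO iLECs, with overlapping genotypes and a single low library. The myeloid factor gene *Spi1* was 3.81-fold lower. The list was not lowered evenly, with 1.85-fold for the GM-CSF receptor gene *Csf2ra*, 1.54-fold for the mannose receptor gene *Mrc1*, 1.497-fold for *Cd68* and 1.18-fold for the efferocytosis receptor gene *Mertk*. Genes of alveolar macrophages, a separate list, were divided, with 3 of 8 tested lowest in iECKO replicate 2 and 4 in control replicate 2. In iECKO replicate 2, 6 of the 8 were below the median of the other 5 libraries, all but *Ear1* and *Cd9*. The median gene of the 8 was 1.56-fold lower there. Of 12 monocyte genes tested, 10 were lowest in iECKO replicate 2, and all 12 were below the median of the other 5 libraries. Their median gene was 2.01-fold lower. Neutrophil genes (5 of 12 lowest there, median 1.56-fold) and dendritic cell genes (5 of 9, median 1.51-fold) were lowered less. Of natural killer, mast cell and eosinophil genes, 1 of 5, 1 of 5 and 0 of 4 were lowest there.

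The lymphocyte lists were low in another library. Of 12 B cell genes tested, 1 was lowest in iECKO replicate 2 and 10 in control replicate 2, and the median gene was 1.54-fold lower in iECKO replicate 2 than in the middle of the others. T cell genes divided as 5 and 10 of 18, with a median of 1.41-fold. Immunoglobulin and T cell receptor constant genes (*Ighm*, *Igkc*, *Iglc2*, *Trac*, *Trbc1* and *Trbc2*) had no row under these symbols. Of 10 class II genes, 8 were lowest in iECKO replicate 2, with a median of 1.86-fold, and control replicate 2 was nearly as low. Of 20 genes shared by most leukocytes, 9 were lowest in iECKO replicate 2, 10 in control replicate 2 and 19 highest in iECKO replicate 3. All 20 were below the median of the other 5 libraries in iECKO replicate 2, also by a median of 1.86-fold. The actin-bundling gene *Lcp1*, the most abundant of these per kilobase, differed least. None of the 16 endothelial markers was lowest in iECKO replicate 2, where the fold of the other 5 libraries over it was 0.961 for their median gene.

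**Figure D4:**
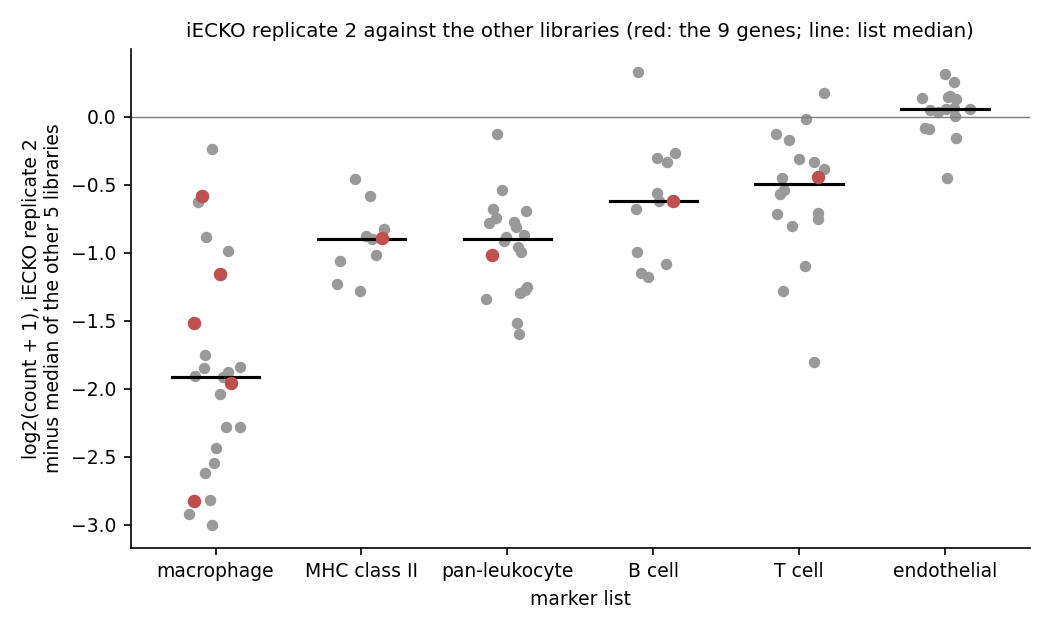
Log2(normalized count + 1) of each gene in iECKO replicate 2 minus its median in the other 5 libraries, by marker list; red points are members of the 9 markers and bars are list medians. The macrophage list lies lowest, the B and T cell lists are nearer to 0, and the endothelial list is at 0.06.

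Summed over each list, the differences between libraries were of the same kind. The 9 markers summed to 15313, 8650 and 15620 normalized counts in the controls and to 15967, 7291 and 20131 in iECKO iLECs, sums that *Cd74* and *Lyz2* dominated. The 24 macrophage genes summed to 16697, 10080 and 14462 in the controls and to 18206, 6545 and 21713 in iECKO iLECs. The ratio of the macrophage to the B cell sum was 2.24 in iECKO replicate 2 and between 3.11 and 4.22 in the other libraries. Relative to the endothelial sum, the genes of most leukocytes stood at 0.0332 in iECKO replicate 2, 0.0357 in control replicate 2 and 0.0803 in iECKO replicate 3, with 0.0485 to 0.0553 in the remaining 3. *Lcp1*, which differed least between libraries, made up much of that leukocyte sum. It gave 6524 of 13423 normalized counts in iECKO replicate 2 and 7520 of 29334 in iECKO replicate 3. Library scaling by the endothelial genes, by the totals or by the upper quartile, which was chosen after the data had been seen, left iECKO replicate 2 lowest for 7 of the 9 markers.

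**Figure D5:**
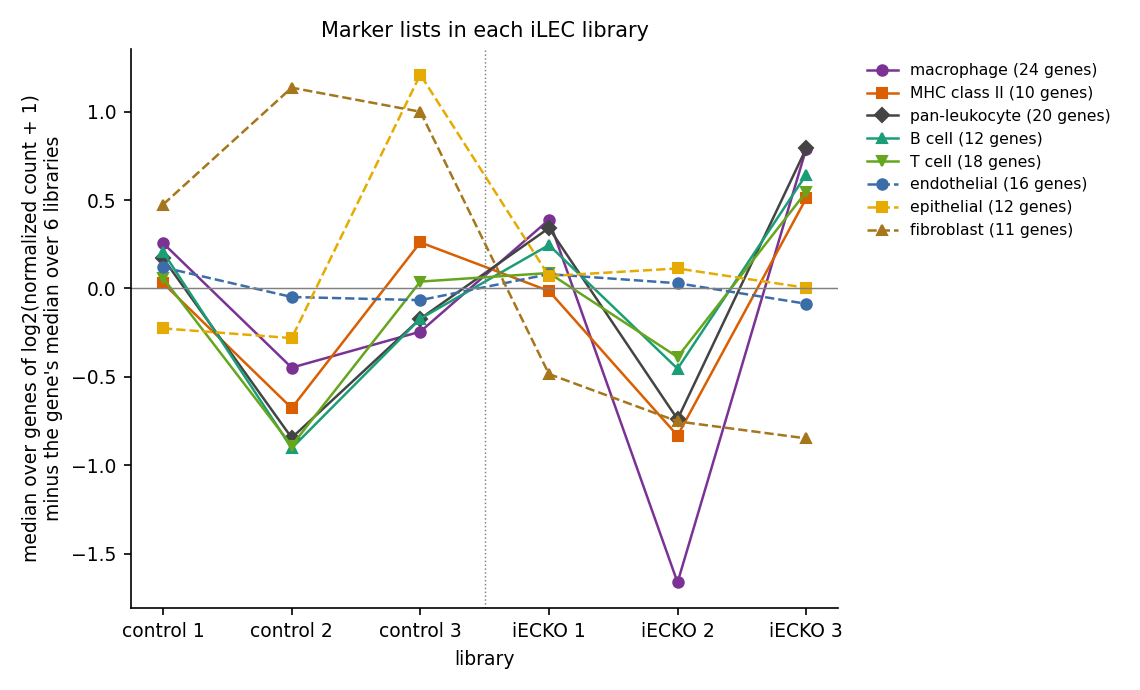
Median over the genes of each list of log2(normalized count + 1) minus the gene's median over the 6 libraries, for 8 marker lists in each library; lines join the points of a list to guide the eye and replicates have no order. The macrophage list falls to -1.66 in iECKO replicate 2, the leukocyte lists shown peak in iECKO replicate 3, and the endothelial list stays near 0.

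Genotype differences were also sought over the 12 leukocyte lists together. Of their 166 genes, 160 had a row and 138 were tested, of which 0 rose and 0 fell by limma, with 7 at an unadjusted *P* value below 0.05. Over all genes, 8.25% were called and 23.9% passed without adjustment. The median log2 fold change was 0.20, against 0.00 over all genes, with 97 genes above 0 and 41 below. The gene nearest to the threshold was *Ms4a2*, the beta chain of the IgE receptor of mast cells and basophils, which had 4.85, 5.24 and 8.64 normalized counts in the controls and 22.3, 17.1 and 22.9 in iECKO iLECs (log2 fold change 1.61, adjusted *P* = 0.0646). Its genotypes did not overlap, but its values were near the minimum for testing a gene. All 20 genes of most leukocytes and all 12 tested B cell genes had fold changes above 0, with medians of 0.38 and 0.34 and lowest adjusted *P* values of 0.387 and 0.383. These directions leaned on iECKO replicate 3, the highest library for 19 of the 20 and 10 of the 12. Without it, *Ptprc*, 1 of the 20, was at -0.028. The macrophage list was divided, 11 above and 13 below 0, with a median of -0.01. In each of these 3 lists, 0 genes had an unadjusted *P* value below 0.05. Median log2 fold changes of the other lists, with 0 genes called in each, were 0.46 for alveolar macrophages (8 genes tested), 0.06 for monocytes (12), -0.004 for neutrophils (12), -0.04 for dendritic cells (9), 0.05 for class II genes (10), 0.39 for T cells (18), -0.082 for natural killer and innate lymphoid cells (5), 0.82 for mast cells and basophils (5) and 0.52 for eosinophils (4).

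Several lists held genes that other cells of the fraction also transcribe. Per kilobase of exon, the most abundant gene was *Cd9* for alveolar macrophages (2796), *Kit* for mast cells (1593), *Tcf7* for T cells (866), *Prg2* for eosinophils (844), *Cd79b* for B cells (555), *Clec9a* for dendritic cells (460), *S100a9* for neutrophils (185) and *Gata3* for natural killer cells (88.6). *Cd9* and *Kit* are also made by lung endothelium. The median gene per kilobase was 23.7 for alveolar macrophages, 22.8 for T cells, 6.43 for dendritic cells and 5.98 for natural killer cells. From which cells the most abundant genes came was not tested, so list medians of fold changes can include transcripts of other cells. The gene with the lowest *P* value was *Ikzf1* among genes of most leukocytes (log2 fold change 0.60), *Siglec1* for macrophages (0.60), *Ear2* for alveolar macrophages (0.76), *Siglech* for dendritic cells (1.27), *H2-DMb2* for class II (0.46), *Pax5* for B cells (0.64), *Prf1* for natural killer cells (0.91) and *Ccr3* for eosinophils (0.88). Their adjusted *P* values by limma were between 0.229 and 0.605. For T cells it was *Tcf7*, a factor of early T cells, at -0.19 (adjusted *P* = 0.14).

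Among monocyte genes, *Ace* and *Nr4a1* had the lowest *P* values, both towards lower levels in iECKO iLECs (log2 fold changes -0.54 and -0.50, adjusted *P* = 0.12 and 0.18). Both are also transcribed by endothelial cells, and *Ace*, which encodes the angiotensin-converting enzyme of lung capillaries, was the most abundant gene of the list at 8427 normalized counts per kilobase. The neutrophil gene *Retnlg* had 29.7, 54.1 and 43.4 in the controls and 56.9, 119 and 299.7 in iECKO iLECs, without passing (log2 fold change 1.60, adjusted *P* = 0.128). The neutrophil surface gene *Ly6g* was at 0 in 3 of the 6 libraries, while the granule gene *Ngp* had 62.5, 100.3 and 175 in the controls and 59.8, 80.6 and 181 in iECKO iLECs. *Fabp1*, *Cd300c* and *Klra8*, listed for alveolar macrophages, dendritic cells and natural killer cells, were at 0 in all 6.

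Signals that call leukocytes were taken from a list of 16 growth factors and chemokines. Their median log2 fold change was -0.34. In iECKO replicate 2, 11 of the 16 were lowest, where 14.1% of all tested genes were, and 14 lay below the median of the other 5 libraries. How far the median fold change rests on that library was not tested. Of the 16, 1 passed, a share near the 8.25% of all genes. It was *Cxcl12*, which retains leukocytes and progenitors through CXCR4. It had 19649, 19304 and 17313 normalized counts in the controls and 14370, 11570 and 13090 in iECKO iLECs, without overlap (log2 fold change -0.53, adjusted *P* = 0.027). Neither ligand of the *Csf1r* product passed. *Csf1* had 1075, 1348 and 1016 in the controls and 1289, 1441 and 1752 in iECKO iLECs (log2 fold change 0.38, adjusted *P* = 0.163), and *Il34* had 69.1, 101 and 77.1 against 55.5, 53.1 and 42.9 (-0.68, adjusted *P* = 0.158).

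The 9 markers moved with each other to unequal degrees. Over the 36 pairs, Pearson's r of log2 values across the 6 libraries was between 0.27 and 0.99 with a median of 0.79. The closest pair was *Adgre1* with *Csf1r*, both of macrophages, and the most distant *Adgre1* with *Cd3e*. Among 11321 tested genes with a mean of at least 100, the 5 most like *Ptprc* were *Fgd3*, *Evi2b*, *Sema4d*, *Myo1g* and *Btk* (r from 0.992 to 0.997), and those most like *Cd79a* were *Dock2*, *Tnfrsf13c*, *Cyfip2*, *Ear2* and *Tmem179b* (0.989 to 0.998). *Tnfrsf13c* encodes the receptor for the B cell survival factor BAFF. *Cd74* was matched by 3 class II genes, *H2-Eb1*, *H2-DMa* and *H2-Aa*, with *Aldh3b1* and *Pkig* (0.986 to 0.993). *Lyz2* had looser matches, *Tmem219*, *Ttpa*, *Fam129c*, *Cd28* and *Arl10* (0.969 to 0.977), none of them a macrophage gene of the list. These are descriptions over 6 libraries that share 1 scaling.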

How the data were processed

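The data are RNA-Seq of iLECs, with 3 control and 3 *Atp6ap2* iECKO libraries. The authors aligned the reads to mm10 and quantified genes with the BaseSpace tools. The authors deposited 1 table of normalized signal values (estimated counts scaled between libraries), which the labels call raw counts. The values are not whole and their median ratio to the geometric mean was 1.00 in all 6 libraries, so reads could not be recovered, depth is unknown and no counting interval is given.

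Values were analysed as log2(normalized count + 1), so fold changes of low genes are understated. Genes that reached 10 in 3 or more libraries were tested with limma 3.58.1 (trend, R 4.3.3), iECKO against control, without covariates, with Benjamini-Hochberg adjustment over all of them and a threshold of 0.05. The count model considered for raw counts was not used. The test was tried on simulated data, but no outcome of that trial is given and no result here rests on it. Single values were compared by the exact two-sided permutation test. Of 24972 symbols, 24490 (98.1%) matched GENCODE vM21 (GRCm38), which gave coordinates and exon lengths. Promoter sequences are from RefSeq's windows.

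The 9 markers and all lists (12 leukocyte lists, platelet, erythroid, ligand, endothelial, fibroblast, mural and epithelial) were chosen with earlier results of these data known. Named genes were the markers, listed genes past the threshold, the most abundant and lowest-*P* gene of a list, genes at 0, *Csf1*, *Il34*, *Spi1*, *Ciita* and the 5 genes most like *Ptprc*, *Lyz2*, *Cd79a* and *Cd74*. Others named (the C1q genes, *Cx3cr1*, *Mrc1*, *Mertk*, *Csf2ra*, *Cd163*, *Lyz1*, *Ly6g*, *Ngp*, *Sftpc*, *Nr4a1*, *Itga2b*, *Ppbp*, *Hba-a2*, *Cpa3*) were chosen after their values were seen. *Ciita* did not pass. Alternatives were other scalings, filters, pseudocounts, variance models and thresholds, the replicate block, a covariate for *Xist*, the 4 libraries with high *Xist* and each library left out. Replicate numbers are shared between genotypes in the labels only, and the deviations of same-numbered libraries correlated by 0.252, 0.114 and 0.0782, so the numbers were not taken to pair the samples. Of the listed genes, 1 is not reported here.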

Additional observations from a re-analysis of the deposited data

How the results depend on the processing

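Of the 9 markers, 0 were called under each alternative run, and 147 of 161 single values kept their direction and their side of the threshold, while 14 changed sign. Leaving out 1 library in turn, the log2 fold change ranged from -0.028 to 0.82 for *Ptprc*, -1.06 to 0.55 for *Adgre1*, -0.081 to 0.61 for *Cd68*, -0.63 to 0.60 for *Csf1r*, -0.39 to 0.36 for *Lyz2*, -0.12 to 1.01 for *Itgam*, 0.10 to 0.92 for *Cd3e*, 0.17 to 0.71 for *Cd79a* and -0.30 to 0.36 for *Cd74*. In the 4 libraries with high *Xist*, *Adgre1* (0.49), *Csf1r* (0.65) and *Lyz2* (0.60) changed sign. *Cd3e* was dropped where a mean of at least 100 was asked. Over all genes, 1193 were called, against 740 with endothelial scaling, 304 without the trend, 767 with the *Xist* covariate, 1 in the 4 libraries with high *Xist* (fewer samples), 1987 and 90 at adjusted *P* values below 0.1 and 0.01, and 204 (without iECKO replicate 3) to 989 (without iECKO replicate 1) with 1 library left out. On the leukocyte lists, 0 genes were called, against 1 (*Ms4a2*) without the trend and at an adjusted *P* value below 0.1, and 0 to 2 with 1 library left out (*Ace* and *Retnlg* without iECKO replicate 1, *Marco* without iECKO replicate 2). With the replicate block, 1508 genes in all and 2 genes of the lists (*Ace* among them) were called, and 0 of the 9 markers. The causes were not tested. With 3 libraries per genotype and unknown depth, differences smaller than the intervals given could not be detected.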

Other observations

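Platelet and red cell genes, which also come with blood, followed other libraries than the leukocyte markers. Platelet genes were highest in control replicate 1 for 9 of 11 tested, with iECKO replicate 1 close behind. The integrin chain gene *Itga2b* had 1055, 194 and 206 normalized counts in the controls and 904, 293 and 444 in iECKO iLECs, and the chemokine gene *Ppbp* had 416, 9.46 and 6.79 against 224, 32.9 and 55.6. Replicate 1 was thus high in both genotypes. By limma 0 of the 11 passed (median log2 fold change 0.39, lowest *P* for *Gp5*), and 0 had an unadjusted *P* value below 0.05. The haemoglobin gene *Hba-a1*, near-identical to *Hba-a2*, had 8757, 30333 and 39505 in the controls and 8541, 15321 and 17629 in iECKO iLECs, so that replicate 1 was lowest in both genotypes. Of 7 red cell genes tested (median log2 fold change -0.57), 1 fell, the erythropoietin receptor gene *Epor* (log2 fold change -0.98, adjusted *P* = 0.038), with 104, 105 and 104 against 53.3, 59.3 and 45.9, where 8.25% of all genes were called. *Epor* did not follow the libraries of *Hba-a1*, since its controls were nearly equal and iECKO replicate 3 was its lowest library. Whether red cells were its source was not tested.

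All 4 tested eosinophil genes were highest in iECKO replicate 3, like most of the leukocyte markers. The granule protein gene *Prg2* had 632, 369 and 799 in the controls and 335, 772 and 1337 in iECKO iLECs, and was thus not low in iECKO replicate 2. The mast cell protease gene *Cpa3* had 8.95, 7.07 and 2.29 against 25.04, 20.8 and 12.98 (log2 fold change 1.64, adjusted *P* = 0.129), without overlap between genotypes but with values near the minimum for testing a gene. The club cell gene *Scgb1a1* rose (log2 fold change 1.75, adjusted *P* = 0.0408), with 45.9, 73.3 and 125 in the controls and 264, 168 and 370 in iECKO iLECs, while 0 of the other 11 epithelial markers passed (median over the 12 of -0.11). This 1 of 12 is near the 8.25% of all genes called.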
